A study of Mus musculus with 24 samples.

Results

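The genes described here are the 10 that carry gemcitabine into a cell, activate it, inactivate it or are hit by it: Slc29a1, Slc29a2, Slc28a3, Dck, Cda, Dctd, Nt5c3, Samhd1, Rrm1 and Rrm2. They were taken by gene symbol from a table of 54532 mouse genes, where each symbol had 1 row, and all 10 were among the 19253 genes that passed the filter on low counts and were tested. Gemcitabine is a fluorinated analogue of deoxycytidine and a standard drug for pancreatic cancer. It is hydrophilic and enters cells through nucleoside transporters, after which deoxycytidine kinase, encoded by Dck, adds the first phosphate. Deaminases and nucleotidases work against that step, the triphosphate form is built into DNA, and the diphosphate form blocks ribonucleotide reductase, the enzyme of Rrm1 and Rrm2 that makes deoxynucleotides.

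RNA from 24 mouse pancreatic tumour samples had been sequenced in bulk, with 6 samples each in the groups GEM, IGEL, LIGEL and PBS, all from day 24. PBS, a buffered saline, was the control group. The labels do not say what GEM, IGEL and LIGEL stand for, and the title of the study speaks of losartan priming and a nanocarrier in pancreatic cancer, so no drug, carrier or dose is assigned to a group here. Strain, age, the tumour model and any agent shared by all groups are not stated in the labels. Nothing in the labels ties each sample to an animal of its own. The p-values therefore reflect the spread among the sequenced samples alone, and that spread may be technical. In bulk RNA, fewer cells of a type and less RNA per cell cannot be told apart.

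The libraries held 27066563 to 40521434 counts. The sample titles say muscle while the tissue label says pancreatic tumour. Genes of skeletal muscle took at most 0.0334% of the counts of a library (IGEL replicate 4; Wilson 95% interval 0.0328 to 0.0340%, counting error only), and 16 genes of pancreatic acinar cells, the cells that make digestive enzymes, were detected in every group. The acinar share ran from 0.00592% to 16.9% in GEM (median 1.34%), from 0.00542% to 9.46% in IGEL (median 1.09%), from 0.0139% to 7.67% in LIGEL (median 0.783%) and from 0.331% to 39.5% in PBS (median 2.15%). PBS replicate 5 stood apart. It had that highest acinar share (39.5%, Wilson 95% interval 39.4 to 39.5%), the lowest total, a composition factor of 0.548 against 0.850 or more elsewhere, and the lowest summed level of 24 proliferation genes, 461 CPM (counts scaled to a common library size with TMM factors). The summed proliferation level had medians of 2786 CPM in GEM, 2582 CPM in IGEL, 2612 CPM in LIGEL and 4002 CPM in PBS. A second set also stood apart: 6 treated libraries with A1, A2 or A3 in the name of their count column, namely GEM replicates 1, 2 and 3, IGEL replicate 1 and LIGEL replicates 1 and 2. The labels do not say what these names mean, and no PBS library is among them. GEM replicates 2 and 3 share 1 of these names, as do LIGEL replicates 1 and 2, and GEM replicate 1 and IGEL replicate 1. The labels do not say whether libraries that share a name share a tumour, and if they do, n = 6 is too high for GEM and LIGEL and p-values that rest on them are too small. Results are given with and without these libraries where they matter.

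Levels of different genes can be compared only per length, so RPKM (CPM divided by gene length in kilobases) was used, with the gene lengths of the table. These ran from 1035 bases for Cda to 11012 bases for Rrm1. Whether they match the transcripts present was not tested, and the order below depends on them. Before division by length, Rrm1 (median 145 CPM over 24 libraries) lay above Rrm2 (112 CPM), whose length was 2771 bases. By the median level over 24 libraries, Rrm2 was highest at 40.2 RPKM, followed by Cda at 27.7, Slc29a1 at 25.8, Samhd1 at 21.2 and Rrm1 at 13.1 RPKM. Dctd at 8.75, Dck at 8.74, Nt5c3 at 5.04 and Slc29a2 at 3.11 RPKM came next, and Slc28a3 was lowest at 0.300 RPKM. The order was not the same in every library. Rrm2 lay above Cda in 20 of 24 libraries, Cda above Slc29a1 in 14, Slc29a1 above Samhd1 in 18 and Dctd above Dck in 13, so Cda and Slc29a1, and likewise Dctd and Dck, were not set apart beyond their spread. Samhd1 lay above Rrm1 in 22 libraries, and Rrm1 above Dctd, Dck above Nt5c3, Nt5c3 above Slc29a2 and Slc29a2 above Slc28a3 in 23 each. The samples held transcripts of the equilibrative transporter Slc29a1 at a higher level per length than those of Slc29a2 or of the concentrative transporter Slc28a3.

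Across the 4 groups, none of the 10 genes passed the test in any of 6 pairwise comparisons or in a test of any difference among the 4 groups. With edgeR's quasi-likelihood test on all 24 libraries and a Benjamini-Hochberg adjusted p under 0.05, 0 of 10 were called in the 3 comparisons with PBS, in the 3 between treated groups and in the test over 4 groups. The background was 0 of 19253 genes, 0%, in each of these 7 tests. At an unadjusted p under 0.05, 0 of the 10 genes stood beside 926 of all genes (4.81%) in GEM against PBS, 0 beside 2896 (15%) in IGEL against PBS, and 1, Slc28a3, beside 3945 (20.5%) in LIGEL against PBS. Between treated groups there were 242 such genes for LIGEL over IGEL, 305 for IGEL over GEM and 608 for LIGEL over GEM, none of them among the 10, and the test over 4 groups had 1937, Slc28a3 among them. On all libraries DESeq2 called 0 genes for GEM, 85 for IGEL and 1229 for LIGEL, each against PBS. Of the 10 it called Slc28a3 alone, in LIGEL. Limma voom with quality weights called 66 in GEM, 384 (1.99%) in IGEL and 728 in LIGEL. Of the 10 these held Slc29a1 in GEM, 0 in IGEL and Rrm1 in LIGEL. The comparisons with PBS share its 6 libraries. In every comparison the values of the 2 groups overlapped for each of the 10 genes. The share of all genes with such overlap was not counted, so this has no background.

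Among the 10 genes, 3 had a positive and 7 a negative log2 fold change in GEM against PBS, with a median of -0.10 beside -0.02 over all genes. In IGEL 4 were higher and 6 lower than in PBS, with medians of -0.12 for the 10 and -0.02 for all genes. In LIGEL 3 were higher and 7 lower than in PBS, with medians of -0.09 for the 10 and -0.03 for all genes. Without a composition factor, the median over all genes was 0.07 in GEM, 0.08 in IGEL and 0.10 in LIGEL, and the signs of Slc29a2 and Dck in GEM, Nt5c3 in IGEL, and Slc29a1 and Slc29a2 in LIGEL became positive. Rrm1, Rrm2 and Slc28a3 were lower, and Cda and Dctd higher, than in PBS under each of the 3 scalings run, and no value passed.

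**Figure D1:**
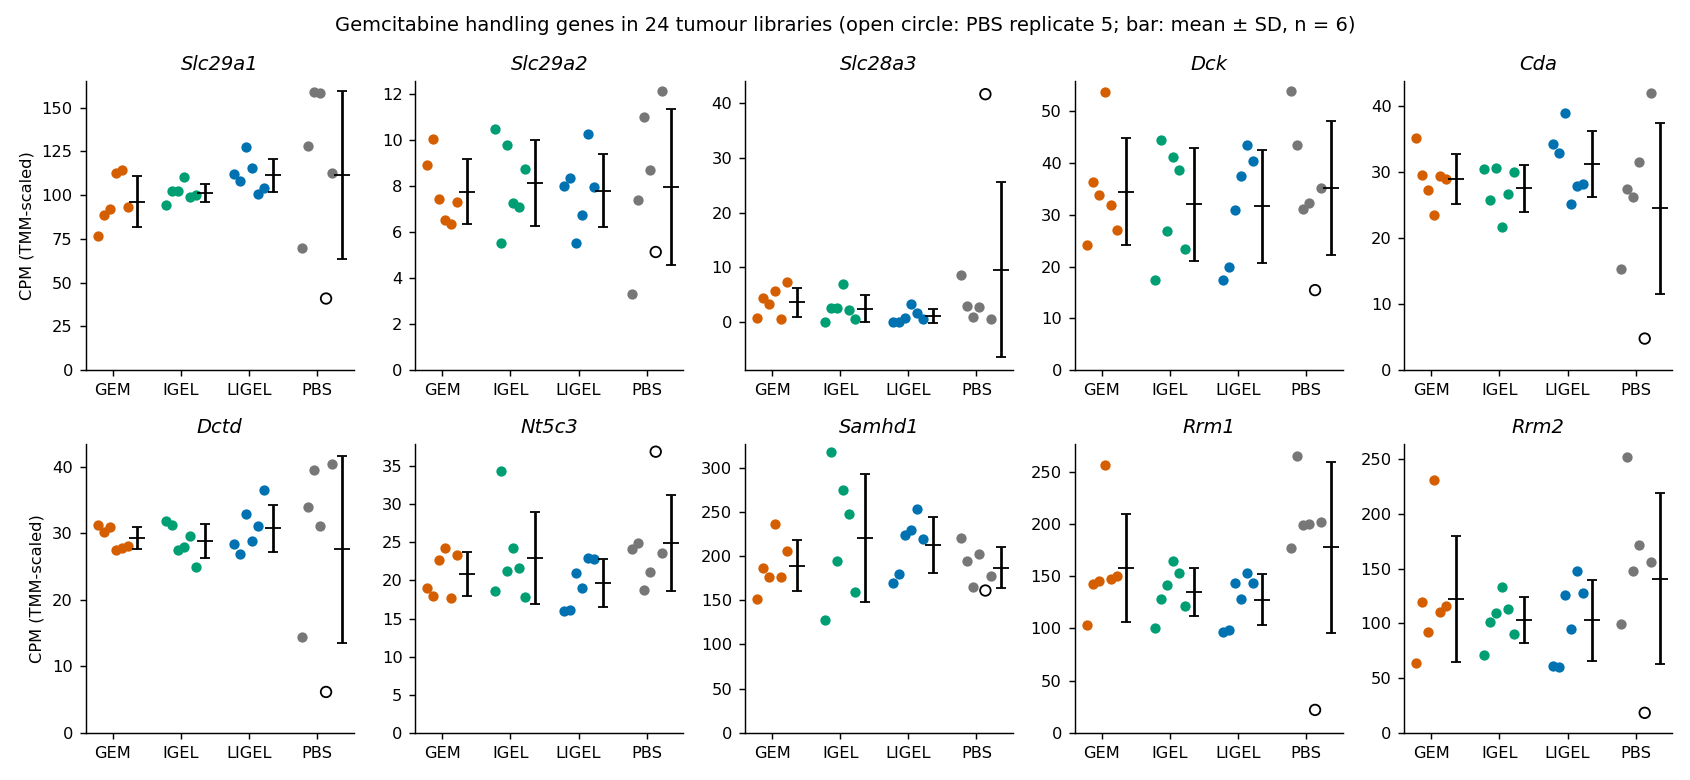
Level of each of the 10 genes in CPM on the TMM-scaled total (vertical axis), by group (horizontal axis). Each point is 1 library, the open circle is PBS replicate 5, and the bar beside each group is the mean ± SD (n = 6). The groups overlap in all 10 panels, and PBS replicate 5 is the highest PBS library for Slc28a3 (41.6 CPM) and Nt5c3 (36.9 CPM) and the lowest for Rrm1 (22.02 CPM) and Rrm2 (18.3 CPM).

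Gene positions are given on mm10 from the deposited table, each as the span from the first to the last annotated base. Among the uptake genes, Slc29a1 (ENSMUSG00000023942, chr17:45585200-45599606, minus strand) encodes the equilibrative nucleoside transporter ENT1, the main carrier of gemcitabine in most cells. Its lowest, median and highest levels were 76.7, 92.8 and 114 CPM in GEM, 94.6, 101 and 110.1 CPM in IGEL, 101, 110.2 and 127 CPM in LIGEL, and 40.9, 120.2 and 159 CPM in PBS. The treated libraries lay within a narrow band that the PBS libraries spanned on both sides, with PBS replicates 1 and 5 lowest and PBS replicates 3 and 4 highest of all 24. The log2 fold change against PBS was -0.21 ± 0.21 (SE; 95% interval -0.64 to 0.22) in GEM, -0.14 ± 0.21 (-0.57 to 0.30) in IGEL and 0.00 ± 0.21 (-0.43 to 0.43) in LIGEL. When PBS replicate 5 was left out it was -0.40 ± 0.15 in GEM (adjusted p = 0.8366, edgeR) and -0.31 ± 0.15 in IGEL (adjusted p = 0.3976, edgeR), still short of the test. Among the alternatives run, Slc29a1 passed in the following. Limma voom with quality weights gave -0.55 ± 0.12 in GEM (adjusted p = 0.04897), where 66 genes, 0.343%, were called. Without PBS replicates 1 and 5 together, a choice made after seeing the data, the value was -0.55 ± 0.11 in GEM (adjusted p = 0.02786, edgeR; 0.6% of genes called) and -0.48 ± 0.11 in IGEL (adjusted p = 0.01413, edgeR; 3.49% called). In the test over 4 groups without these 2 libraries it passed as well (adjusted p = 0.02102, edgeR; 1.71% called).

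Slc29a2 (ENSMUSG00000024891, chr19:5024006-5031971, plus strand) encodes ENT2, a related carrier of lower affinity for many nucleosides. Its levels ran from 6.37 to 10.02 CPM in GEM (median 7.36), from 5.51 to 10.5 CPM in IGEL (median 7.99), from 5.53 to 10.3 CPM in LIGEL (median 7.96) and from 3.30 to 12.1 CPM in PBS (median 8.05). Here too PBS held both the lowest library, replicate 1, and the highest, replicate 6. The log2 fold changes against PBS were -0.04 ± 0.24 in GEM (95% interval -0.54 to 0.47), 0.03 ± 0.24 in IGEL (-0.47 to 0.53) and -0.03 ± 0.24 in LIGEL (-0.53 to 0.47).

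Slc28a3 (ENSMUSG00000021553, chr13:58545399-58610877, minus strand) encodes the concentrative transporter CNT3, which draws nucleosides in with sodium and is found in polarized epithelia. It ranged from 1 count in IGEL replicate 1 to 616 counts in PBS replicate 5. Its upstream window is shown because its level followed the acinar and ductal marker scores. The 250 bases before the RefSeq start lie at chr13:58610878-58611127 on the minus strand (GRCm38.p6, the mm10 assembly), and capitals mark an E-box of the type bound by the acinar factor PTF1 (CACCTG, both strands searched), at positions -239 to -234 from the start.
Slc28a3: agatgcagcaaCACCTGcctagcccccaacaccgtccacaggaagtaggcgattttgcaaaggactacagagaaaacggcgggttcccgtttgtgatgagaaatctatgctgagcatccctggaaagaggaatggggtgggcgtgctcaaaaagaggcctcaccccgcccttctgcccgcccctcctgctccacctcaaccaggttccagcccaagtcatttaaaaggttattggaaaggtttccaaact
CACCTG is in 17.2% of 32851 such mouse windows (all 10 genes had RefSeq windows, 19 in all), and a match is not a binding site. The same letters, on either strand, are in 4 windows of Slc29a1 and 2 of Dctd, whose relations with the acinar score did not pass. The window also holds ATTGG, the CCAAT box on the other strand, at -20 to -16 (33.8% of windows), and has no ATTGAT, the core letters of hepatocyte nuclear factor 6 (6.72% of windows).

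The lowest, median and highest Slc28a3 levels were 0.535, 3.80 and 7.29 CPM in GEM, 0.0253, 2.37 and 6.95 CPM in IGEL, 0.0536, 0.749 and 3.34 CPM in LIGEL, and 0.665, 2.87 and 41.6 CPM in PBS. LIGEL had the lowest median, and 5 of its 6 libraries lay below the PBS median, yet the groups overlapped. The log2 fold change against PBS was -1.39 ± 1.02 in GEM (95% interval -3.50 to 0.73), -1.93 ± 1.04 in IGEL (-4.08 to 0.22) and -3.08 ± 1.09 in LIGEL (-5.34 to -0.83; adjusted p = 0.1419, edgeR). DESeq2 called the LIGEL difference (log2 fold change -3.16 ± 1.01, adjusted p = 0.0349), in a comparison where it called 6.38% of genes. The highest PBS library weighed on these values, and without PBS replicate 5 the edgeR value was 0.18 ± 0.94 in GEM, -0.36 ± 0.94 in IGEL and -1.51 ± 0.96 in LIGEL (adjusted p = 0.4606). With the acinar score as a covariate it was 0.23 ± 0.53 in GEM, -0.19 ± 0.56 in IGEL and -1.64 ± 0.53 in LIGEL (adjusted p = 0.158, edgeR).

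For activation, Dck (ENSMUSG00000029366, chr5:88764996-88783281, plus strand), whose product adds the first phosphate to gemcitabine, had lowest, median and highest levels of 24.1, 32.9 and 53.7 CPM in GEM, 17.3, 32.8 and 44.5 CPM in IGEL, 17.4, 34.2 and 43.4 CPM in LIGEL, and 15.5, 33.8 and 53.9 CPM in PBS. The medians were close, while the lowest and the highest of the 24 libraries, PBS replicates 5 and 1, differed 3.49-fold. The log2 fold changes against PBS were -0.03 ± 0.28 in GEM (95% interval -0.61 to 0.55), -0.14 ± 0.28 in IGEL (-0.72 to 0.44) and -0.16 ± 0.28 in LIGEL (-0.74 to 0.42).

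Among the inactivating enzymes, Cda (ENSMUSG00000028755, chr4:138338424-138367992, minus strand) encodes cytidine deaminase, which turns gemcitabine into an inactive uridine analogue. Its levels ran from 23.6 to 35.2 CPM in GEM (median 29.2), from 21.6 to 30.6 CPM in IGEL (median 28.4), from 25.2 to 39.0 CPM in LIGEL (median 30.6) and from 4.80 to 42.0 CPM in PBS (median 26.9). PBS replicates 5 and 1 were the lowest of all 24 libraries (4.80 and 15.3 CPM) and PBS replicate 6 the highest. The log2 fold changes against PBS were 0.24 ± 0.28 in GEM (95% interval -0.34 to 0.82), 0.16 ± 0.28 in IGEL (-0.42 to 0.74) and 0.34 ± 0.28 in LIGEL (-0.24 to 0.93), and without PBS replicate 5 they were 0.01 ± 0.18, -0.05 ± 0.18 and 0.13 ± 0.18.

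Dctd (ENSMUSG00000031562, chr8:48099092-48153233, plus strand) encodes deoxycytidylate deaminase, which acts on the monophosphate and is itself inhibited by gemcitabine triphosphate. It had the tightest treated libraries of the 10, 24.9 to 36.5 CPM over 18, with means of 29.3 ± 1.67 CPM in GEM, 28.8 ± 2.59 CPM in IGEL and 30.7 ± 3.53 CPM in LIGEL, against 27.6 ± 14.1 CPM in PBS (SD, n = 6 each). The 6 PBS libraries lay at 14.4, 33.9, 39.5, 31.0, 6.15 and 40.4 CPM, so that replicates 1 and 5 were below and replicates 3 and 6 above every treated library. The log2 fold changes against PBS were 0.08 ± 0.26 in GEM (95% interval -0.46 to 0.63), 0.06 ± 0.26 in IGEL (-0.49 to 0.61) and 0.15 ± 0.26 in LIGEL (-0.39 to 0.70). The sign turned without PBS replicate 5, to -0.14 ± 0.17 in GEM, -0.15 ± 0.17 in IGEL and -0.05 ± 0.17 in LIGEL, none of which passed the test. Without PBS replicates 1 and 5 together the IGEL value was -0.35 ± 0.10 and passed (adjusted p = 0.04989, edgeR). With the proliferation score as a covariate, Cda (0.73 ± 0.23, adjusted p = 0.04749, edgeR) and Dctd (0.54 ± 0.17, adjusted p = 0.04826, edgeR) were called higher in LIGEL than in PBS, among 9.93% of genes called in that fit. PBS replicate 5 had the lowest proliferation score (3.97, against 5.91 or more elsewhere) and the lowest Cda and Dctd levels of all libraries. The covariate fit was not run without it. Without it and with no covariate, the LIGEL values were 0.13 ± 0.18 for Cda and -0.05 ± 0.17 for Dctd.

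Nt5c3 (ENSMUSG00000029780, chr6:56882400-56923932, minus strand) encodes a pyrimidine nucleotidase that removes the phosphate from pyrimidine monophosphates. Its lowest, median and highest levels were 17.7, 20.8 and 24.3 CPM in GEM, 17.8, 21.4 and 34.4 CPM in IGEL, 16.03, 20.003 and 22.97 CPM in LIGEL, and 18.7, 23.9 and 36.9 CPM in PBS. PBS replicate 5 and IGEL replicate 2 were the highest libraries, and all 6 LIGEL libraries lay below the PBS median. The log2 fold change was -0.26 ± 0.17 in GEM (95% interval -0.60 to 0.09), -0.11 ± 0.17 in IGEL (-0.45 to 0.23) and -0.34 ± 0.17 in LIGEL (-0.68 to 0.00; adjusted p = 0.2484, edgeR). Leaving out PBS replicate 5 gave a LIGEL value of -0.19 ± 0.15.

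Samhd1 (ENSMUSG00000027639, chr2:157097533-157135265, minus strand) encodes a triphosphohydrolase that breaks down deoxynucleotide triphosphates and is induced by interferons. Its window before the RefSeq start, chr2:157135097-157135346 on the minus strand (GRCm38.p6), is shown because Samhd1 is an interferon-induced gene. That start lies inside the gene span given above, so much of the window overlaps the annotated gene. Capitals mark the letters of an interferon gamma activated site (TTCNNNGAA, both strands searched), at positions -235 to -227 from the RefSeq start.
Samhd1: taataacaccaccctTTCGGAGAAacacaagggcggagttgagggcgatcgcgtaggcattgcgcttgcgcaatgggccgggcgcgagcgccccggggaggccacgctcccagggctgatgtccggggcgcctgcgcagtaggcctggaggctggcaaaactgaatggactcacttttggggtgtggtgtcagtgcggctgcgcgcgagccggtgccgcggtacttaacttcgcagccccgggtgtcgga
TTCNNNGAA is in 7.02% of the 32851 windows. The interferon-stimulated response element, searched on both strands (in 2.98% of windows), is not in this window, which says nothing of other stretches.

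The lowest, median and highest Samhd1 levels were 152, 182 and 236 CPM in GEM, 128, 221 and 317 CPM in IGEL, 169, 222 and 253 CPM in LIGEL, and 161, 186 and 221 CPM in PBS. IGEL held both the lowest library of all 24, replicate 1, and the highest, replicate 2, and its SD of 72.1 CPM was above the 29.0 CPM of GEM, the 32.02 CPM of LIGEL and the 23.1 CPM of PBS. The log2 fold change against PBS was 0.02 ± 0.17 in GEM (95% interval -0.33 to 0.37), 0.24 ± 0.17 in IGEL (-0.11 to 0.59) and 0.19 ± 0.17 in LIGEL (-0.17 to 0.54). Scaling with RLE factors turned the GEM value to 0.00 on the negative side, and no other Samhd1 value against PBS changed sign under another scaling.

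Of the targets, Rrm1 (ENSMUSG00000030978, chr7:102441695-102469771, plus strand) encodes the large subunit of ribonucleotide reductase, which holds the catalytic and regulatory sites, and Rrm2 (ENSMUSG00000020649, chr12:24708241-24714146, plus strand) the small subunit, which holds the radical and is made when cells replicate their DNA. Their upstream windows are shown because both levels followed the proliferation genes, and capitals mark CCAAT boxes (CCAAT, both strands searched). The Rrm1 window lies at chr7:102441445-102441694 on the plus strand and has CCAAT at positions -91 to -87 and -45 to -41 from the RefSeq start. The Rrm2 window lies at chr12:24708004-24708253 on the plus strand and has it at -50 to -46 (both GRCm38.p6). The last bases of the Rrm2 window lie inside the gene span given above.
Rrm1: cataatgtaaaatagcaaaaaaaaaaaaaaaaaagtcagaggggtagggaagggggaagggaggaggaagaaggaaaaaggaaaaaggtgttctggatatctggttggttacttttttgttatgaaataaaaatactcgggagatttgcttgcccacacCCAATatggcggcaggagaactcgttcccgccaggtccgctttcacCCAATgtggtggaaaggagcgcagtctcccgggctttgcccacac
Rrm2: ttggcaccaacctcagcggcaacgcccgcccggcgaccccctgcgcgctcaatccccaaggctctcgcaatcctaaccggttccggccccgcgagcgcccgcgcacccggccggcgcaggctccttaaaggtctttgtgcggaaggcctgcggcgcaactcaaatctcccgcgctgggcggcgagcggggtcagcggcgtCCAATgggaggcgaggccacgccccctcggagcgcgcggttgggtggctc
CCAAT is in 33.8% of windows, and windows of Slc29a1, Slc28a3 and Dctd hold it too. Neither window holds the exact letters searched for an E2F site (TTTGGCGC, TTTCCCGC, TTTGCCGC or TTTCGCGC, in 1.86% of windows). Looser forms of that site were not searched. The letters of a cell cycle homology region (TTTGAA or TTCGAA, in 17.1%) are also in neither window. No conclusion about the factors follows from these absences.

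Rrm1 had lowest, median and highest levels of 103, 146 and 257 CPM in GEM, 100.2, 135 and 164 CPM in IGEL, 96.9, 136 and 153 CPM in LIGEL, and 22.02, 199.5 and 265 CPM in PBS. All 6 IGEL and all 6 LIGEL libraries, and 5 of 6 GEM libraries, lay below the PBS median. The overlap with IGEL and LIGEL came from PBS replicate 5 alone, since the other 5 PBS libraries ran from 178 to 265 CPM. How many of all genes lack overlap once this library is left out was not counted. The log2 fold change against PBS was -0.17 ± 0.33 in GEM (95% interval -0.85 to 0.50), -0.40 ± 0.33 in IGEL (-1.07 to 0.28; adjusted p = 0.536, edgeR) and -0.48 ± 0.33 in LIGEL (-1.15 to 0.20; adjusted p = 0.4009, edgeR). Without PBS replicate 5 it was -0.42 ± 0.18 in GEM (adjusted p = 0.8917, edgeR), -0.63 ± 0.18 in IGEL (adjusted p = 0.1331, edgeR) and -0.71 ± 0.18 in LIGEL (adjusted p = 0.05966, edgeR), which did not pass. The LIGEL value passed in limma voom with quality weights (-0.74 ± 0.18, adjusted p = 0.02046; 3.78% of genes called) and without PBS replicates 1 and 5 together (-0.77 ± 0.19, adjusted p = 0.03174, edgeR; 2.63% called), and the IGEL value passed in the second of these (-0.70 ± 0.19, adjusted p = 0.04594, edgeR).

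Rrm2 had lowest, median and highest levels of 63.4, 113 and 231 CPM in GEM, 70.9, 105 and 133 CPM in IGEL, 60.2, 110.2 and 148 CPM in LIGEL, and 18.3, 152 and 252 CPM in PBS. All IGEL and LIGEL libraries lay below the PBS median, and GEM replicate 4 was the highest treated library for both subunits (257 CPM for Rrm1 and 231 CPM for Rrm2). The log2 fold change against PBS was -0.21 ± 0.38 in GEM (95% interval -0.9996 to 0.585), -0.45 ± 0.38 in IGEL (-1.25 to 0.34) and -0.45 ± 0.38 in LIGEL (-1.25 to 0.34). Without PBS replicate 5 it was -0.45 ± 0.29 in GEM, -0.69 ± 0.29 in IGEL and -0.69 ± 0.29 in LIGEL, with adjusted p of 0.9999, 0.3381 and 0.2608 (edgeR). With the proliferation score as a covariate, all 24 libraries gave Rrm1 values of 0.09 ± 0.08 in each of GEM, IGEL and LIGEL against PBS. The Rrm2 values were 0.05 ± 0.13, 0.07 ± 0.13 and 0.14 ± 0.13, so neither subunit kept its negative sign. Rrm1 and Rrm2 followed that score closely (r = 0.98 and 0.96 over 24 libraries). A covariate so close to the genes leaves little of any group difference, so the change of sign decides nothing about its cause.

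**Figure D2:**
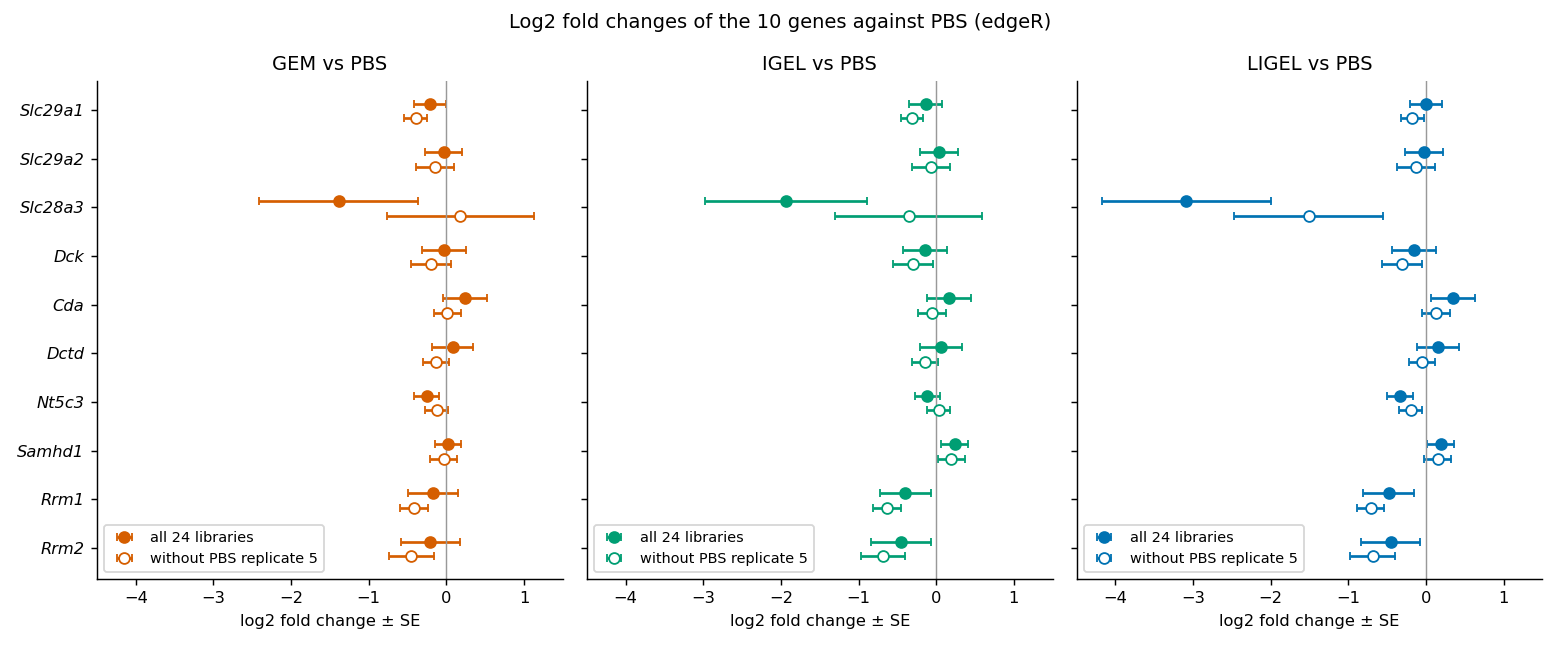
Log2 fold change of each of the 10 genes against PBS (horizontal axis, ± SE, edgeR) in GEM, IGEL and LIGEL. Filled circles use all 24 libraries and open circles leave out PBS replicate 5, which moves Slc28a3 in LIGEL to -1.51, against -3.08 with it, and Rrm1 in LIGEL to -0.71, against -0.48 with it.

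Without PBS replicate 5 the 10 genes had 2 higher and 8 lower values in each of the 3 comparisons with PBS. None was called, beside 0 of 19525 genes (0%) for GEM, 18 (0.0922%) for IGEL and 173 (0.886%) for LIGEL, and 34 (0.174%) in the test over 4 groups. At an unadjusted p under 0.05 there were 2 of the 10 in GEM (Slc29a1 and Rrm1), 3 in IGEL (Slc29a1, Rrm1 and Rrm2) and 2 in LIGEL (Rrm1 and Rrm2), beside 5.2% of all genes for GEM, 12.2% for IGEL and 15.4% for LIGEL. Their log2 fold changes were all negative.

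Between treated groups, LIGEL and IGEL had 3 genes higher and 7 lower, IGEL and GEM 4 higher and 6 lower, and LIGEL and GEM 5 of each, the first-named group over the second. The widest differences were again those of Slc28a3, with log2 fold changes of -1.15 ± 1.03 for LIGEL against IGEL (95% interval -3.29 to 0.98), -0.55 ± 1.01 for IGEL against GEM (-2.64 to 1.54) and -1.70 ± 1.04 for LIGEL against GEM (-3.85 to 0.46). All 6 LIGEL libraries lay below the GEM median of Slc28a3. For Slc29a1 the order of the fitted values was the reverse. The log2 fold changes were 0.21 ± 0.21 for LIGEL against GEM (-0.22 to 0.64) and 0.08 ± 0.21 for IGEL against GEM (-0.36 to 0.51). All 6 LIGEL and all 6 IGEL libraries lay above the GEM median. That median lay between GEM replicate 3, an A1 to A3 library, and GEM replicate 6, which is not one. GEM replicates 1, 2 and 3 (76.7, 88.5 and 92.3 CPM) are A1 to A3 libraries and the lowest of GEM. GEM replicates 4, 5 and 6 had 113, 114 and 93.3 CPM. Replicates 4 and 5 lay above every IGEL library, and replicate 6 below every IGEL and LIGEL library. The other 8 genes had values between -0.31 and 0.22 in these comparisons, and their intervals all held 0.

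The rest of the pathway was followed in 47 further genes, of which 44 were tested, and Slc28a1, Nt5c1a and Nme3 were below the filter. None was called against PBS (background 0% as above), and 31 of 44 were lower in GEM, 29 in IGEL and 24 in LIGEL than in PBS. The 11 genes of the drug's other targets and of deoxynucleotide supply, such as thymidylate synthase and the DNA polymerases, were lower in 11 of 11 in GEM, 10 of 11 in IGEL and 10 of 11 in LIGEL, with median log2 fold changes of -0.12, -0.22 and -0.31. Kinases were lower in 10, 8 and 6 of 13, other transporters in 2 of 3 each time, efflux pumps in 3, 2 and 2 of 7, and nucleotidases and deaminases in 5, 7 and 4 of 10, in GEM, IGEL and LIGEL. Other lists were one-sided too, with 0 genes called in each. Of 24 proliferation genes 22 had negative values in each treated group against PBS (medians -0.31 in GEM, -0.53 in IGEL and -0.66 in LIGEL), as had 10 of 10 islet genes and 8, 8 and 7 of 8 endothelial genes. All 16 acinar genes were lower (medians -1.62, -2.49 and -2.93 in the same order). Their part in the counts of pathway genes was not tested.

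By smallest p, the leading pathway genes against PBS were Dtymk, Dctpp1 and Abcc10 in GEM, Dctpp1, Dtymk and Shmt2 in IGEL, and Dtymk, Dctpp1 and Slc29a4 in LIGEL. Dctpp1, whose product cleaves deoxycytidine triphosphate and its analogues, ran from 17.4 to 27.5 CPM in GEM, from 13.1 to 19.7 CPM in IGEL and from 13.02 to 26.45 CPM in LIGEL, against 21.8 to 37.2 CPM in PBS. The IGEL and PBS values did not overlap, but Dctpp1 was picked by its small p. How many of all genes lack overlap in this comparison was not counted. The log2 fold changes of Dctpp1 were -0.35 ± 0.17 in GEM, -0.71 ± 0.17 in IGEL (adjusted p = 0.3063, edgeR) and -0.50 ± 0.17 in LIGEL. Dtymk, thymidylate kinase, gave -0.30 ± 0.13 in GEM, -0.41 ± 0.13 in IGEL and -0.40 ± 0.13 in LIGEL. The mitochondrial serine hydroxymethyltransferase Shmt2 gave -0.43 ± 0.17 in IGEL, and the transporter Slc29a4 -2.30 ± 0.93 in LIGEL. The efflux pump Abcc10 gave -0.49 ± 0.29 in GEM, a value that turned to 0.12 ± 0.13 without PBS replicate 5, where it was 0.32 ± 0.13 in IGEL and 0.43 ± 0.13 in LIGEL (adjusted p = 0.1243, edgeR). Slc29a4 was low throughout, from 0 to 0.478 CPM in LIGEL against 0.164 to 2.77 CPM in PBS, so its fitted value depends on the prior count. Without PBS replicate 5, Ctps, which makes cytidine triphosphate, was the 1 pathway gene called (-0.48 ± 0.10 in LIGEL, adjusted p = 0.02228, edgeR), and Dctpp1 in IGEL had -0.75 ± 0.17 (adjusted p = 0.07052, edgeR).

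To describe the differences between libraries, each gene was set against 4 marker scores, each the mean log2 CPM of a list. The lists were those of proliferation, of tumour and ductal epithelium, of macrophages and monocytes, and of acinar cells. The score of tumour and ductal epithelium did not always follow the summed level of its list. IGEL replicate 1 had a score of 3.24 and 1426 CPM summed, and IGEL replicate 2 had 4.29 and 602 CPM. PBS replicate 1 was highest in both (6.97 and 2201 CPM). Relations with this score therefore do not measure the amount of epithelium. Over 24 libraries 15 of 40 relations passed (permutation test with 100000 resamples, two-sided, adjusted over the 40), and 14 of these also passed without PBS replicate 5. The smallest p these resamples can give is 1e-05. Rrm1 and Rrm2 went with proliferation. For Rrm1 Pearson's r was 0.98 and Spearman's rho 0.92 (permutation p = 1e-05 each, adjusted p = 0.000133), and r was 0.95 without the 2 libraries farthest from the median score, 0.96 without PBS replicate 5, 0.99 within the 6 A1 to A3 libraries and 0.98 within the other 18. For Rrm2 r was 0.96 and rho 0.86 (permutation p = 1e-05 each, adjusted p = 0.000133), and r was 0.89, 0.92, 0.93 and 0.97 under the same 4 choices of libraries. Within the 6 A1 to A3 libraries no relation passed after adjustment, where the smallest exact p is 0.00278.

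Slc28a3 went with both epithelial scores. With the acinar score r was 0.85 and rho 0.89 (permutation p = 1e-05 each, adjusted p = 0.000133), and r was 0.92 without the 2 farthest libraries, 0.81 without PBS replicate 5, 0.73 within the A1 to A3 libraries and 0.85 within the others. With the score of tumour and ductal epithelium r was 0.84 and rho 0.81 (permutation p = 2e-05 each, adjusted p = 0.0002), and r was 0.84, 0.85, 0.98 and 0.72 under the same choices. The 2 scores were not separated here. Nt5c3 also went with the acinar score (r = 0.68, permutation p = 0.00019, adjusted p = 0.00095; rho = 0.68, permutation p = 0.00048; r = 0.68 without the 2 farthest libraries, 0.61 without PBS replicate 5, 0.25 within A1 to A3 and 0.65 within the others). Cda went against it (r = -0.56, permutation p = 0.00129, adjusted p = 0.00516; rho = -0.66, permutation p = 0.00064; r = -0.60, -0.50, -0.65 and -0.56 under these choices).

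Dck and Samhd1 went with the macrophage and monocyte score, among others. For Dck r was 0.73 and rho 0.73 (permutation p = 4e-05 and 9e-05, adjusted p = 0.00032 and 0.00072), and r was 0.63 without the 2 farthest libraries, 0.71 without PBS replicate 5, 0.67 within A1 to A3 and 0.81 within the others. For Samhd1 r was 0.63 and rho 0.59 (permutation p = 0.00096 and 0.00277, adjusted p = 0.00427 and 0.0111), and r was 0.53, 0.61, 0.97 and 0.60 under these choices. Dck also went with proliferation (r = 0.68, permutation p = 8e-05, adjusted p = 0.000533; rho = 0.59, permutation p = 0.00312), at r = 0.59 without the 2 farthest libraries, 0.60 without PBS replicate 5, 0.97 within A1 to A3 and 0.66 within the others. Samhd1 also went with the acinar score (r = 0.58, permutation p = 0.00324, adjusted p = 0.0118; rho = 0.60, permutation p = 0.00215), at r = 0.49 without the 2 farthest libraries, 0.73 without PBS replicate 5, 0.67 within A1 to A3 and 0.36 within the others. Weaker relations with the score of tumour and ductal epithelium passed for Nt5c3 (r = 0.53, permutation p = 0.00807, adjusted p = 0.0248; rho = 0.65, permutation p = 0.00078; r = 0.48, 0.48, 0.62 and 0.42 under these choices). Such a relation also passed for Dck (r = 0.50, permutation p = 0.01364, adjusted p = 0.0366; rho = 0.43, permutation p = 0.03722; r = 0.31, 0.71, 0.99 and 0.14) and for Cda (r = -0.49, permutation p = 0.01371, adjusted p = 0.0366; rho = -0.48, permutation p = 0.0185; r = -0.41, -0.56, -0.65 and -0.52). Single libraries weighed on the relation of Slc29a1. Its r with proliferation was 0.81 (permutation p = 0.00014, adjusted p = 0.0008) but rho was 0.49 (permutation p = 0.01669, adjusted p = 0.05135), and r was 0.53 without the 2 farthest libraries, 0.56 without PBS replicate 5, -0.39 within A1 to A3 and 0.86 within the others.

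**Figure D3:**
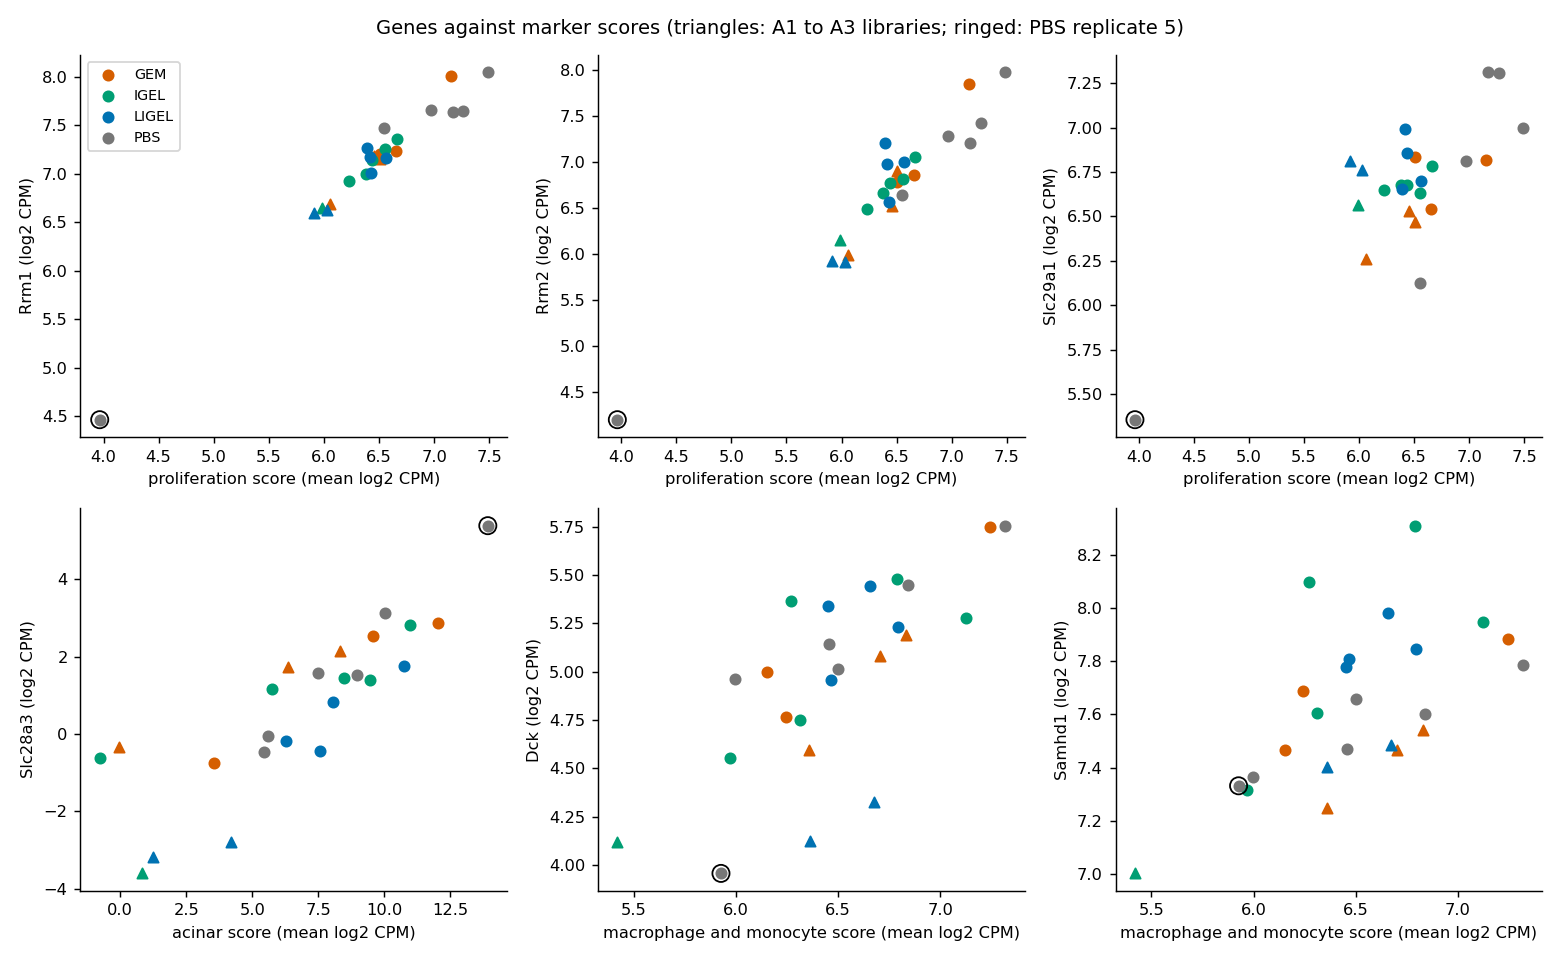
Log2 CPM of Rrm1, Rrm2, Slc29a1, Slc28a3, Dck and Samhd1 (vertical axes) against a marker score, the mean log2 CPM of a marker list (horizontal axes), 1 point per library. Colours are the groups, triangles the A1 to A3 libraries and the ringed point PBS replicate 5. Rrm1 lies close to a line over all libraries (r = 0.98), and Slc29a1 does so far less once the ringed library is left out (r = 0.56).

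Among the 10 genes themselves, 16 of 45 pairs passed over 24 libraries and 21 without PBS replicate 5, with 10 pairs in both (permutation test, adjusted over the 45). The share among pairs of other genes was not counted, so these numbers have no background. The 2 subunits of ribonucleotide reductase had the closest relation, with r of 0.96 and rho of 0.89 (permutation p = 1e-05 each, adjusted p = 0.000225 and 0.00045), and r of 0.93 without the 2 farthest libraries, 0.95 without PBS replicate 5, 0.92 within A1 to A3 and 0.97 within the others. Dck went with Rrm2 (r = 0.75, permutation p = 2e-05, adjusted p = 0.000225; rho = 0.63, permutation p = 0.00123; r = 0.70, 0.70, 0.86 and 0.71 under these choices). It also went with Samhd1 (r = 0.74, permutation p = 2e-05, adjusted p = 0.000225; rho = 0.76, permutation p = 3e-05; r = 0.69, 0.73, 0.58 and 0.67). Rrm1 was the third partner of Dck (r = 0.73, permutation p = 1e-05, adjusted p = 0.000225; rho = 0.68, permutation p = 0.00034; r = 0.72, 0.72, 0.95 and 0.74). Of the transporters, Slc28a3 went with the nucleotidase Nt5c3 (r = 0.71, permutation p = 0.00012, adjusted p = 0.0009; rho = 0.66, permutation p = 0.00053; r = 0.70, 0.61, 0.63 and 0.66). It went against the deaminase Cda (r = -0.66, permutation p = 0.0001, adjusted p = 0.0009; rho = -0.69, permutation p = 0.00023; r = -0.55, -0.59, -0.55 and -0.79). The pair of deaminases, Cda and Dctd, had r of 0.91 (permutation p = 0.0003, adjusted p = 0.00169) but rho of 0.31 (permutation p = 0.1417). It rested on the lowest libraries, with r of 0.27 without the 2 farthest, 0.66 without PBS replicate 5, -0.38 within A1 to A3 and 0.93 within the others. The other 3 pairs that passed in both also fell short without the 2 farthest libraries. One was Slc29a1 with Dctd (r = 0.82, permutation p = 0.00016, adjusted p = 0.00103; rho = 0.37, permutation p = 0.07605; r = 0.33, 0.56, -0.74 and 0.90 under these choices). Slc29a1 with Rrm2 was another (r = 0.75, permutation p = 0.00039, adjusted p = 0.00195; rho = 0.56, permutation p = 0.00458; r = 0.44, 0.48, -0.34 and 0.83). Slc29a2 with Dctd was the third (r = 0.59, permutation p = 0.01074, adjusted p = 0.0322; rho = 0.43, permutation p = 0.03918; r = 0.36, 0.69, 0.39 and 0.60).

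**Figure D4:**
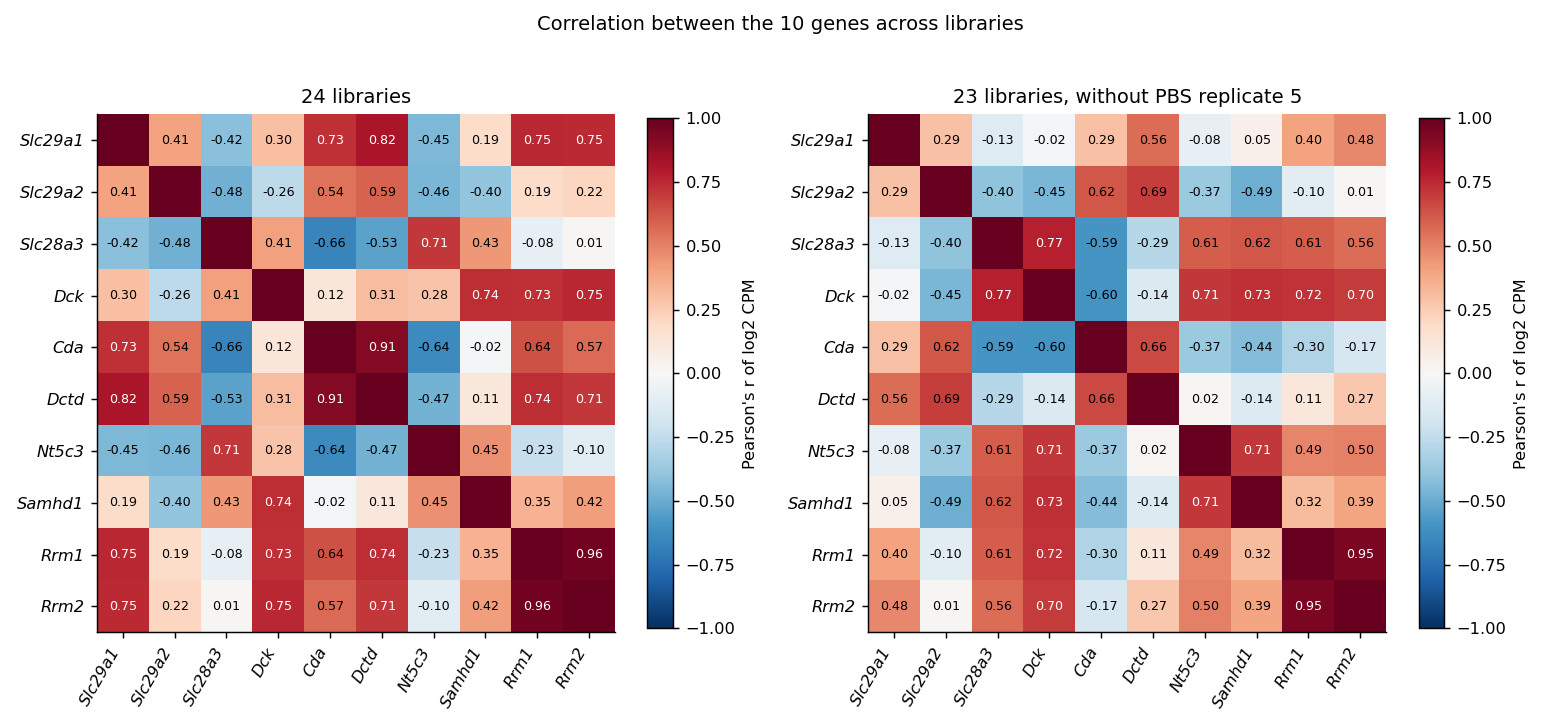
Pearson's r of log2 CPM between each pair of the 10 genes, over 24 libraries (left) and over 23 without PBS replicate 5 (right). Rrm1 with Rrm2 is 0.96 and 0.95 in these panels, while Cda with Dctd is 0.91 and 0.66.

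The genes most like each of the 10 over 24 libraries, by Pearson's r of log2 CPM and as a description, were Ticrr, Top2a and Ncaph for Rrm1 (r = 0.99 each), Chtf18, Fanca and Mcm10 for Rrm2 (0.97 each), Esrp2, Chdh and Onecut1 for Slc28a3 (0.97, 0.96 and 0.96), and Ifi47, Gm12250 and Phf11a for Samhd1 (0.96, 0.94 and 0.93). Dck was most like Mb21d1, Brip1 and Aoc1 (0.90, 0.88 and 0.88), and Cda most like Baalc, Emp3 and Capg (0.98, 0.98 and 0.97). For Dctd they were Epop, Ppil1 and Prmt1 (0.97, 0.96 and 0.96), for Slc29a1 Cstf1, Klhl22 and Slc35a4 (0.93, 0.92 and 0.92), for Slc29a2 Eif5a, Rrp1b and Tars2 (0.86, 0.85 and 0.84) and for Nt5c3 Phka1, Gstm2 and Rbm48 (0.86, 0.83 and 0.83). Over the 23 libraries without PBS replicate 5 the gene most like Samhd1 was again Ifi47 (0.98), that of Cda became Emp3 (0.92) and that of Slc28a3 became Pkhd1 (0.96).

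The A1 to A3 libraries were compared with the other treated libraries, with a term for the group, after the data had been seen. Over all genes 748 of 18698 (4%) were called, 309 higher and 439 lower, and 2 of the 10 were called, Rrm1 and Rrm2. Marker lists differed between the same libraries: the summed level of 14 genes induced by type I interferon ran from 329 to 553 CPM in the 6 A1 to A3 libraries and from 686 to 2246 CPM in the other 12, and that of proliferation from 1867 to 2717 CPM and from 2318 to 4256 CPM. Their part in the result was not tested. Rrm1 averaged 114 ± 22.9 CPM in the 6 A1 to A3 libraries and 153 ± 35.0 CPM in the other 12 treated libraries (SD), with a log2 fold change of -0.52 ± 0.11 (adjusted p = 0.01932, edgeR). Rrm2 averaged 77.8 ± 23.7 CPM and 125 ± 37.1 CPM, with -0.81 ± 0.17 (adjusted p = 0.01803, edgeR). Dck (-0.70 ± 0.19, adjusted p = 0.05013, edgeR) and Samhd1 (-0.45 ± 0.13, adjusted p = 0.05648, edgeR) did not pass, and 7 of the 10 had an unadjusted p under 0.05, beside 4799 of all genes (25.7%). Without the A1 to A3 libraries the log2 fold changes of Rrm1 against PBS were 0.04 in GEM, -0.36 in IGEL and -0.33 in LIGEL, and those of Rrm2 were 0.09, -0.40 and -0.20, none called. Slc28a3 in LIGEL then had -2.58 ± 1.11 (adjusted p = 0.4987, edgeR). Without PBS replicate 5 as well, Rrm1 had -0.19 ± 0.17 in GEM, -0.56 ± 0.15 in IGEL (adjusted p = 0.1813, edgeR) and -0.54 ± 0.16 in LIGEL (adjusted p = 0.3213, edgeR).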

How the data were processed

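Bulk RNA-seq of 24 samples was used as a table of raw counts per gene, which the authors deposited. HISAT2, featureCounts and Subread and the mm10 build are named per the submitters' processing notes. The annotation, the strand setting and the tool versions are not given in the sources used here, so reads of overlapping or antisense genes cannot be told apart. Groups came from the sample labels, and each count column was matched to its sample by name.

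Genes were kept with filterByExpr (minimum count 10, minimum total 15), which left 19253 genes and removed 0.0666% of the counts. Counts were scaled with TMM factors and tested with edgeR 4.0.16 in R 4.3.3 (quasi-likelihood, robust, 1 fit of all 24 libraries, no covariate, Benjamini-Hochberg adjustment over all genes, threshold 0.05). The edgeR fits kept the package's default prior count, and log2 CPM values used a prior count of 2. The SE is the log2 fold change divided by the square root of F. The fit was tested on simulated data. Alternatives were RLE factors, no composition factor, no filter, DESeq2 1.42.0, limma 3.58.1 voom with quality weights, 2 groups only, a replicate block, each library left out, the A1 to A3 libraries left out or given a term, and the acinar or proliferation score as a covariate. Chosen after seeing these data were the fits without PBS replicates 1 and 5 together and without PBS replicate 5 and the A1 to A3 libraries together, and the comparison of the A1 to A3 with the other treated libraries. RPKM used the gene lengths in the deposited table. Correlations used log2 CPM with permutation tests (100000 resamples, or exact within 6 libraries; scipy 1.17.1). The 250 bases before each RefSeq start (GRCm38.p6) were searched for motifs.

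The 10 genes and the marker and pathway lists were chosen with earlier results of these data known. Of other pathway genes, the 3 with the smallest p in each comparison with PBS were named, and of all genes the 3 with the highest r to each of the 10. Ctps and the likest genes without PBS replicate 5 were named after their values were seen. Wilson intervals cover counting error only.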

Additional observations from a re-analysis of the deposited data

Results flagged for a closer look

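Each of the 10 genes was checked in each of the 4 groups for a library standing apart from the other 5, by the gap to its nearest neighbour as a share of the whole range of the group (Dixon's ratio, at its 95% critical value). Of 40 groups 5 passed, where chance gives about 1 in 20, or 2. PBS replicate 5 was the highest PBS library for Slc28a3 (ratio 0.805; 41.6 CPM) and for Nt5c3 (ratio 0.662; 36.9 CPM). It was the lowest for Rrm1 (ratio 0.641; 22.02 CPM). GEM replicate 4 was the highest GEM library for Rrm1 (ratio 0.693; 257 CPM) and for Rrm2 (ratio 0.664; 231 CPM). Without GEM replicate 4 the log2 fold change of Rrm2 in GEM against PBS was -0.49.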

How the results depend on the processing

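The number of the 10 genes called was 0 in all 7 tests and stayed 0 in 178 of 186 alternatives, among them every one that left out 1 library (0 to 0 in each test). The main fit called 0 of 19253 genes in each test, so a 0 among the 10 says little about them. The number was 1 in GEM against PBS with voom quality weights (0.343% of all genes called) and without PBS replicates 1 and 5 together (0.6%). It was 3 in IGEL against PBS without these 2 (3.49%). In LIGEL against PBS it was 1 with DESeq2 (6.38%), 1 with voom (3.78%) and 2 with the proliferation covariate (9.93%). Without PBS replicates 1 and 5 it was 1 in LIGEL against PBS (2.63%) and 1 in the test over 4 groups (1.71%). Of 1500 alternative log2 fold changes 1321 kept their sign and call, 169 changed sign with neither value called, 9 passed with the same sign, and 1, Dctd in IGEL against PBS, went to -0.35 without PBS replicates 1 and 5, against 0.06 with them. Which property of these libraries moves the values was not tested. Of 96 alternative correlations 59 kept their call, 33 kept only their sign, and 4 turned, all within the A1 to A3 libraries: Cda with Dctd (r = -0.38), Slc29a1 with Dctd (-0.74), Slc29a1 with Rrm2 (-0.34) and Slc29a1 with proliferation (-0.39).

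Same-numbered libraries did not as a rule deviate together (36 pairs, r from -0.59 to 0.71, median -0.06, 14 over 0.1). Of 24 libraries 6 correlated best with their own number. No pairing by number was seen, but a check over all genes at once cannot exclude one. With a replicate block 0 of the 10 genes and 0 of all genes were called, and 637, 1949 and 3235 genes had an unadjusted p under 0.05 in GEM, IGEL and LIGEL against PBS. Precision is limited by the spread among 6 libraries. Slc28a3 had 1 to 3 counts in IGEL replicate 1 and LIGEL replicates 1 and 2, and 19 to 616 in the other libraries.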
